A study of Mus musculus with 38 samples.

Results

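Tail skin of mice given both vitiligo induction and ABX (vitiligo_ABX) was set against tail skin of mice given neither (no_induction). The first group held 6 libraries, numbered 001 to 006, and the other held 9, numbered 001, 002, 003, 005, 011, 012, 021, 022 and 023. These 15 of the 38 libraries of the series were chosen by the treatment in their labels. The series examined tail skin after vitiligo induction and asked what depleting the microbes of the gut with ABX does to such skin. Of the other groups, 9 libraries with induction alone (vitiligo) and 6 with ABX alone (no_induction_ABX) are set beside the results with no test, since they would be compared with the same no_induction libraries. The labels give neither the strain, age or sex of the mice, nor how vitiligo was induced, nor the agents, dose and duration of ABX. Induction and ABX change together in this comparison, and their parts in a difference cannot be told apart within it. Nothing in the labels says that the libraries of a group came from separate mice, so a p-value here speaks only of the spread between libraries, which may be technical.

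Vitiligo is a disease in which cytotoxic T cells destroy the pigment cells of the skin, and interferons are among the signals that draw those cells in. Tail skin holds pigment cells in the epidermis as well as in hair follicles. Its epidermis renews itself from a basal layer whose cells move outward, switch keratins and build a cornified envelope sealed by lipids, over a dermis with fibroblasts, vessels, nerves, mast cells and a layer of fat.

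Total counts ran from 16.42 M to 19.85 M in vitiligo_ABX and from 16.87 M to 25.96 M in no_induction, and 13977 genes passed the expression filter. The tissue matched its label, since 5 of 5 keratinocyte markers (Krt5, Krt14, Krt1, Krt10 and Lor) summed to 9461 to 17434 CPM (counts divided by the scaled library total in M) in vitiligo_ABX and 13526 to 31730 CPM in no_induction. The 5 skeletal muscle markers summed to at most 4.37 CPM in vitiligo_ABX and 8.61 CPM in no_induction. Libraries stood apart in both groups. In a principal component analysis of the 15 libraries the first component (30.8% of variance) placed vitiligo_ABX 004 to 006 between -37.9 and -27.5, and vitiligo_ABX 001 to 003 between -5.7 and -1.3. On that component no_induction 001, 002, 003 and 005 lay between -3.4 and 8.6, and the other 5 no_induction libraries lay between 19 and 21.6. Libraries no_induction 011 and 012 held Y-linked transcripts at 226 and 196 CPM, against at most 0.185 CPM in any of the other 13 libraries, and no_induction 011 held gastrointestinal transcripts at 241 CPM. The labels give no batch, so the part of a cohort in these splits was not tested.

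How far skin with both treatments stood from uninduced untreated skin was measured as the root mean square difference of log2(CPM + 1) over the genes tested. Libraries of the 2 groups lay 0.471 apart on average, against 0.414 between vitiligo_ABX libraries and 0.384 between no_induction libraries. The excess of the distance between groups over that within groups was 0.0720, and the exact two-sided permutation test over 5005 arrangements of the libraries gave p = 0.0002, the smallest it can give. The mean distance of a single library to the no_induction libraries had a lowest, median and highest value of 0.386, 0.481 and 0.531 in vitiligo_ABX, 0.407, 0.494 and 0.532 in vitiligo, 0.460, 0.552 and 0.605 in no_induction_ABX, and 0.340, 0.371 and 0.462 in no_induction. The ranges of vitiligo_ABX and no_induction overlapped, with vitiligo_ABX 001 and 002 inside the no_induction range. Without vitiligo_ABX 004 to 006 the excess was 0.0268 with an exact permutation p = 0.0818, and without vitiligo_ABX 001 to 003 it was 0.173 with p = 0.00455, the smallest that 220 arrangements allow.

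**Figure D1:**
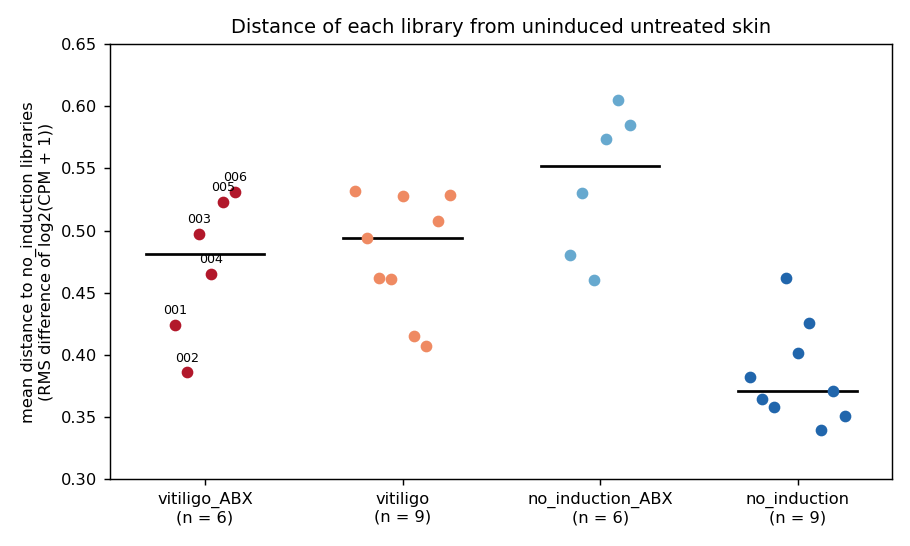
Mean distance of each library to the no_induction libraries (y axis, root mean square difference of log2(CPM + 1), other than to itself) in 4 groups (x axis), with 1 point per library and the group median as a line. The vitiligo_ABX points are numbered, and run from 0.386 to 0.531, against 0.340 to 0.462 in no_induction.

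Of 13977 genes tested, 1255 (8.98%) were called at a Benjamini-Hochberg adjusted p under 0.05 in edgeR's quasi-likelihood test. Of these, 538 genes (3.85%) were higher and 717 (5.13%) were lower in vitiligo_ABX. A fitted change of 2-fold or more was reached by 217 called genes, 74 higher and 143 lower, and the median log2 fold change of all genes tested was 0.01. In 172 genes (1.23%) the 2 groups did not overlap, with 63 (0.451%) higher and 109 (0.780%) lower in vitiligo_ABX. The number of calls depended on vitiligo_ABX 004 to 006: without these 3 libraries 1 gene was called, the endothelin receptor gene Ednrb, whereas 3035 were called without vitiligo_ABX 001 to 003. Each of these fits kept 3 vitiligo_ABX libraries, which lay 0.434 apart on average for 001 to 003 and 0.282 for 004 to 006. Fewer and more spread libraries give fewer calls, so a lost call does not show that 001 to 003 lacked the difference. Leaving out vitiligo_ABX 004, 005 or 006 singly left 571 (254 higher, 317 lower), 399 (154 higher, 245 lower) or 473 (175 higher, 298 lower) calls. Leaving out no_induction 011 and 012 together left 559 calls (230 higher, 329 lower), and leaving out no_induction 021 to 023 left 506 (147 higher, 359 lower). Leaving out 1 no_induction library left 825 to 1414 calls. The counts of list members called in such fits, given below, are to be read beside these totals, since calls over all genes moved too. A set of 100 called genes was followed through the fits, some of which are not named here, while some named genes (such as Hoxa9, Hoxd9, Mcm6 and Lor) were not in it. None of the 100 changed its sign without vitiligo_ABX 004 to 006. These genes were called in a fit that held vitiligo_ABX 001 to 003, so their sign was largely fixed by that choice.

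**Figure D2:**
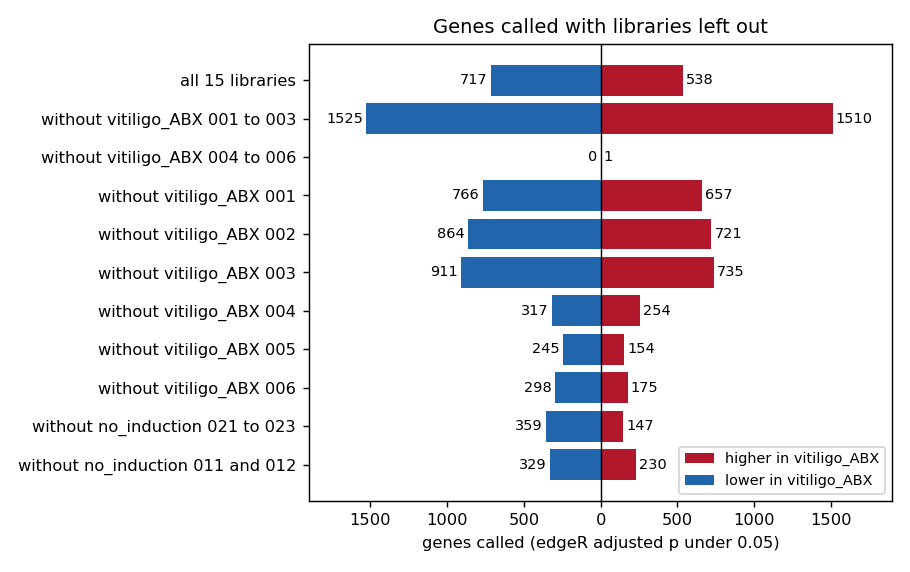
Number of genes called higher (red, right) and lower (blue, left) in vitiligo_ABX than in no_induction with all 15 libraries and with the named libraries left out. Without vitiligo_ABX 004 to 006 there was 1 call, and without vitiligo_ABX 001 to 003 there were 1510 higher and 1525 lower.

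Pigment cell genes gave 1 call in each direction. Of 23 tested 1 was called higher and 1 lower, against 3.85% and 5.13% of all genes, and their median log2 fold change was 0.22. The gene called higher was Ednrb, the receptor for endothelins that pigment cell precursors need and that vessels and other skin cells also carry. Ednrb stood at 52.6, 68.3 and 100 CPM (lowest, median and highest) in vitiligo_ABX, against 15.2, 23.4 and 33.4 CPM in no_induction. Every vitiligo_ABX library lay above every no_induction library, at a log2 fold change of 1.65 ± 0.17 (SE) with an adjusted p of 0.000232. Without vitiligo_ABX 004 to 006 the log2 fold change of Ednrb was 1.26 with an adjusted p of 0.0363, and its adjusted p reached at most 0.00115 when any 1 library was left out. Its median was 27.4 CPM in vitiligo and 44.4 CPM in no_induction_ABX. The gene called lower was Rab38, a small GTPase that carries melanin enzymes to melanosomes, with 31.1, 36.9 and 41.3 CPM in vitiligo_ABX against 38.8, 47.2 and 62.6 CPM in no_induction (log2 fold change -0.43 ± 0.11, adjusted p 0.0295). That call was lost without no_induction 011 or any 1 of vitiligo_ABX 004, 005 and 006, with adjusted p up to 0.0851.

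The genes that make the melanosome and its pigment did not pass the test. Pmel, which forms the fibrils on which melanin is laid, had 22.9, 35.5 and 70.1 CPM in vitiligo_ABX against 17.6, 27.2 and 39.1 CPM in no_induction. The groups overlapped, and the log2 difference was 0.45 with a 95% confidence interval of 0.01 to 0.90 and an adjusted p of 0.185. In the vitiligo group the median of Pmel was 6.95 CPM and in no_induction_ABX it was 21.4 CPM. The melanin synthesis enzymes Dct and Tyrp1 differed by 0.37 (interval 0.06 to 0.68, adjusted p 0.120) and 0.40 (interval 0.07 to 0.74, adjusted p 0.116) on the log2 scale. For tyrosinase (Tyr), the first enzyme of melanin synthesis, the difference was 0.16 with an interval of -0.25 to 0.56, and for Mlana, a melanosome protein, it was -0.20 with an interval of -0.86 to 0.46. Oca2, a melanosomal transporter, differed by 0.55 (interval -0.13 to 1.23), Mitf, the master regulator of pigment cells, by 0.25 (interval -0.06 to 0.55), and the growth factor receptor Kit by 0.38 (interval 0.10 to 0.65, adjusted p 0.0767). The intervals of Pmel, Dct, Tyrp1, Tyr and Mlana all lay above a log2 difference of -1, a 2-fold reduction. In bulk skin, fewer cells of a type and less RNA per cell cannot be told apart.

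**Figure D3:**
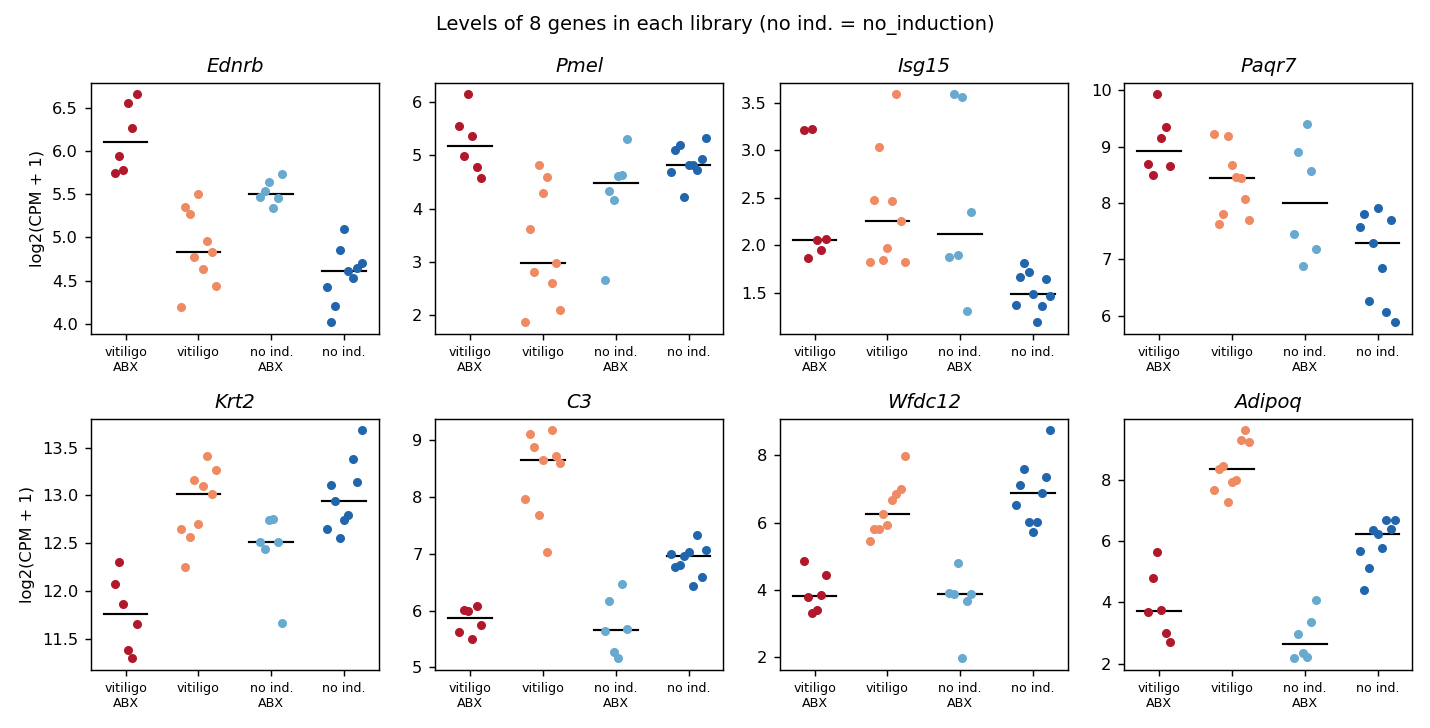
Level of 8 genes as log2(CPM + 1) (y axis) in each library of vitiligo_ABX, vitiligo, no_induction_ABX and no_induction (left to right), with group medians as lines. In Ednrb, Isg15 and Paqr7 all vitiligo_ABX libraries lay above all no_induction libraries, in Krt2, C3 and Wfdc12 all lay below, and in Pmel and Adipoq the 2 groups overlapped.

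Genes induced by type I interferon, the antiviral alarm signal, were higher in vitiligo_ABX. Of 35 tested 16 were called higher and none lower, 45.7% against 3.85% of all genes, with a median log2 fold change of 0.73 against 0.01. By the level of the whole list (37 genes in the table), vitiligo_ABX libraries ranged from 2.52 to 3.41 and no_induction libraries from 2.21 to 2.72 on the log2(CPM + 1) scale, with vitiligo_ABX 002 and 004 inside the no_induction range. Isg15, a ubiquitin-like protein attached to other proteins in the interferon response, had 2.65, 3.17 and 8.38 CPM in vitiligo_ABX against 1.27, 1.79 and 2.51 CPM in no_induction. The groups did not overlap, and the log2 fold change was 1.32 ± 0.27 (adjusted p 0.00921), with vitiligo_ABX 001 and 003 highest. Parp14, an ADP-ribosyltransferase, did not overlap either, at 23.2, 29.1 and 33.3 CPM in vitiligo_ABX against 14.6, 16.8 and 21.5 CPM in no_induction (0.72 ± 0.11, adjusted p 0.00364). Oasl2, of the oligoadenylate synthetase family that senses viral RNA, rose most, to 3.56, 10.97 and 20.6 CPM in vitiligo_ABX, against 1.82, 2.82 and 4.78 CPM in no_induction (1.88 ± 0.32, adjusted p 0.00415). Its relative Oas3 (1.5 ± 0.31, adjusted p 0.00887) and the chaperone Rtp4 (1.28 ± 0.23, adjusted p 0.00467) rose as well, and each of these 5 calls held with any 1 library left out. Reads of near-identical family members may be shared in the Oas, Ifit and Apol9 genes, so their single values are uncertain. The number of list members called was 5 without vitiligo_ABX 005, 8 without 006, 9 without no_induction 011 and 012, 7 without no_induction 021 to 023, and 0 without vitiligo_ABX 004 to 006, where the median was 0.69. Over all genes these fits called 154, 175, 230, 147 and 1 higher, against 538 with all 15 libraries. Isg15 had a median of 3.76 CPM in vitiligo and 3.40 CPM in no_induction_ABX.

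The stretch before the start of interferon-induced genes often carries a site for the interferon-activated factor complex. The sequence GAAANNGAAA, a core of that site, was sought on both strands (TTTCNNTTTC on the other) in the 250 bases before each start in RefSeq (GRCm38.p6). At least 1 promoter held it in 359 (3.26%) of the 11029 genes tested that were in the promoter table. Among interferon genes tested, 24 were in the table and 12 (50%) held it, 9 of 13 that were called higher and 3 of 11 that were not called. The promoters of 3 called genes with a match and 1 without are printed 5′ to 3′ on the strand of the gene, with matches in capitals. Of these, Apol9a is not in the interferon list counted above and was named for its large rise. Isg15 lies at chr4:156200819-156201068 on the minus strand, Oas3 at chr5:120777660-120777909 on the minus strand, Apol9a (the first of 2 starts) at chr15:77411081-77411330 on the minus strand and Oasl2 at chr5:114896684-114896933 on the plus strand.
Isg15: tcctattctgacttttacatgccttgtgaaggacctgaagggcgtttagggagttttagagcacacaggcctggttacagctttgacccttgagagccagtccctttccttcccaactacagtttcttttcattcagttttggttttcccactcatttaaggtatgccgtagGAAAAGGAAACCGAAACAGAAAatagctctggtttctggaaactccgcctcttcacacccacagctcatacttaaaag
Oas3: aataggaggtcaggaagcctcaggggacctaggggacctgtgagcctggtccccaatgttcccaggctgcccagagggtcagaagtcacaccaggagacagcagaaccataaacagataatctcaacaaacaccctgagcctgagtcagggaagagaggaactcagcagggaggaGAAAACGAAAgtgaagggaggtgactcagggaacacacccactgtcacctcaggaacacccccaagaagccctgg
Apol9a: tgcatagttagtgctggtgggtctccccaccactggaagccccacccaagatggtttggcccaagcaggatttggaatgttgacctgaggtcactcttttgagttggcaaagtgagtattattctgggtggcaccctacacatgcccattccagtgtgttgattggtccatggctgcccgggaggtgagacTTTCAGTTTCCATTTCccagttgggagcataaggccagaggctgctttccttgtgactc
Oasl2: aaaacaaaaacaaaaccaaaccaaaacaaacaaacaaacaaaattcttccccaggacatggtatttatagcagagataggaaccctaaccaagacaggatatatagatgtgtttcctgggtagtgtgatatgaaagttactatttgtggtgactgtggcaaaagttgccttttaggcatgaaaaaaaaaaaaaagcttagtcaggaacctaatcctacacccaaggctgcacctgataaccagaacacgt
Isg15 had 3 overlapping matches, the first beginning 78 bases before the start, Oas3 had 1 beginning 75 bases before, and Apol9a had 2 overlapping matches, the first beginning 59 bases before. Oasl2, the interferon gene with the largest rise, had none of these letters in its window.

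Targets of interferon gamma and antigen presentation genes gave fewer calls. Of 35 tested, 3 were called higher, 8.57% against 3.85% of all genes, with a median of 0.23. These were the interferon-inducible GTPases Irgm2 (0.62 ± 0.14, adjusted p 0.0147), Irgm1 (0.59 ± 0.15, adjusted p 0.0212) and Gbp7 (0.64 ± 0.18, adjusted p 0.0375). The count was 1 without vitiligo_ABX 005 or 006, 6 without vitiligo_ABX 002 and 7 without no_induction 005. The call of Irgm1 was lost without vitiligo_ABX 005 or 006, and that of Gbp7 without any 1 of 10 libraries: vitiligo_ABX 004 to 006, and no_induction 002, 003, 011, 012 and 021 to 023 (adjusted p up to 0.0624 and 0.116). The MHC class I gene H2-K1 differed by -0.10 (interval -0.33 to 0.13). The T cell-attracting chemokine Cxcl10 had 0.835, 1.31 and 5.48 CPM in vitiligo_ABX against 0.232, 0.480 and 1.93 CPM in no_induction (1.44, interval 0.39 to 2.48, adjusted p 0.0754), and vitiligo_ABX 003 was the highest. Of 20 T cell and cytotoxic genes 2 were called higher (10% against 3.85%), the cytokine receptor genes Il7r (0.95 ± 0.22, adjusted p 0.0140) and Il2rg (0.59 ± 0.16, adjusted p 0.0358), and the median of the list was 0.02. The call of Il7r was lost without vitiligo_ABX 005 (adjusted p 0.0520) and that of Il2rg without any 1 of vitiligo_ABX 005 and 006 and no_induction 011, 012, 021 and 023 (adjusted p up to 0.109). Cd8a, the marker of cytotoxic T cells, did not pass the filter and was not tested in the main fit. It reached at most 0.864 CPM in vitiligo_ABX and 0.373 CPM in no_induction, and whether it differed was left undecided.

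Genes of the outer epidermis were lower in vitiligo_ABX. Of 16 suprabasal keratinocyte genes 10 were called lower and none higher, 62.5% against 5.13% of all genes, with a median log2 fold change of -0.67. Krt2, the keratin of the upper epidermal layers, had 2509, 3472 and 5050 CPM in vitiligo_ABX, against 6013, 7848 and 13182 CPM in no_induction. The groups did not overlap (-1.24 ± 0.21, adjusted p 0.00376), and the median was 8250 CPM in vitiligo and 5843 CPM in no_induction_ABX. Krt10, the main suprabasal keratin (-1.08 ± 0.20, adjusted p 0.00553), and Krtdap, a secreted differentiation peptide (-1.0 ± 0.18, adjusted p 0.00497), did not overlap either, while Krt78 overlapped (-1.29 ± 0.23, adjusted p 0.00467). All 4 calls held with any 1 library left out. The number called was 6 without vitiligo_ABX 005, 8 without no_induction 011 and 012, and 0 without vitiligo_ABX 004 to 006, where the median was -0.41. None of the 18 basal keratinocyte genes was called in either direction by edgeR with all 15 libraries (median 0.01). At an unadjusted p under 0.05 edgeR gave 1 higher and 0 lower, DESeq2 called 1 higher and 0 lower, and limma-voom with library quality weights called 3 in each direction. The basal keratins Krt5 and Krt14 differed by -0.30 (interval -0.69 to 0.09) and -0.37 (interval -0.80 to 0.07).

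Of 32 genes for cornified envelope proteins 15 were called lower and none higher, 46.9% against 5.13%, with a median of -0.98. Of these, 10 were late cornified envelope genes of the Lce1 cluster, 4 were small proline-rich protein genes of the Sprr cluster, and the other was loricrin (Lor), the main protein of the envelope. Lce1g had 101, 141 and 278 CPM in vitiligo_ABX against 215, 345 and 547 CPM in no_induction (-1.18 ± 0.23, adjusted p 0.00663). Lce1h, Lce1l and Lce1b were lower by 1.12 to 1.18 on the log2 scale, with adjusted p from 0.00526 to 0.00800. In all 4 genes vitiligo_ABX 002 lay inside the no_induction range. These genes are short and alike, and how the counting split their reads is not given in the sources used here, so single members are uncertain. The count of members called stayed between 11 and 17 with any 1 library left out, and was 11 without no_induction 011 and 012. Of 30 genes for barrier enzymes, lipids and junctions 14 were called lower and none higher, 46.7% against 5.13%, with a median of -0.47. Abhd5, the cofactor that releases fatty acids for barrier lipids, did not overlap, at 94.2, 112 and 141 CPM in vitiligo_ABX against 143, 152 and 166 CPM in no_induction (-0.39 ± 0.08, adjusted p 0.0102). Sdr9c7, a dehydrogenase that acts on barrier lipids, was lower by 0.82 ± 0.17 (adjusted p 0.0108), and Alox12b, the lipoxygenase that begins that step, by 1.17 ± 0.28 (adjusted p 0.0193). The call of Alox12b was lost without vitiligo_ABX 005 or 006 (adjusted p up to 0.0607). For this list the count was 4 without vitiligo_ABX 004, 2 without either 005 or 006, 9 without no_induction 012, 4 without no_induction 011 and 012, and 3 without no_induction 021 to 023.

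Hair genes moved in few members. Of 24 hair keratin genes 2 were called lower (8.33% against 5.13%), Krt36 (-1.42 ± 0.30, adjusted p 0.0103) and Krt84 (-1.60 ± 0.34, adjusted p 0.0105), keratins of nail, tongue and tail scale as well as hair. Krt84 had 1980, 3453 and 10983 CPM in vitiligo_ABX against 9711, 16004 and 18796 CPM in no_induction, with vitiligo_ABX 002 inside the no_induction range. Of 36 keratin-associated protein genes 4 were called lower (11.1% against 5.13%), Krtap13 by 1.54 ± 0.29 (adjusted p 0.00643), Krtap3-1 by 1.07 ± 0.22 (adjusted p 0.00934), Krtap3-3 by 1.03 ± 0.21 (adjusted p 0.00957) and Krtap6-1 by 0.86 ± 0.22 (adjusted p 0.0263). The medians of both lists were near that of all genes, at 0.06 and -0.12. The call of Krtap6-1 was lost without vitiligo_ABX 004 or 005, with adjusted p up to 0.0749. Of 29 hair follicle regulators 4 were called higher (13.8% against 3.85%), led by the stem cell receptor Lgr5, at 30.8, 51.5 and 54.8 CPM in vitiligo_ABX against 16.2, 29.7 and 38.9 CPM in no_induction (0.75 ± 0.18, adjusted p 0.0208). The call of Lgr5 was lost without any 1 of vitiligo_ABX 004 to 006 (adjusted p up to 0.0602), and the list had 0 calls without vitiligo_ABX 004, vitiligo_ABX 006 or both no_induction 011 and 012. It had 1 or 2 calls without any 1 of vitiligo_ABX 001 and 005 and no_induction 002, 003, 012 and 021 to 023.

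**Figure D4:**
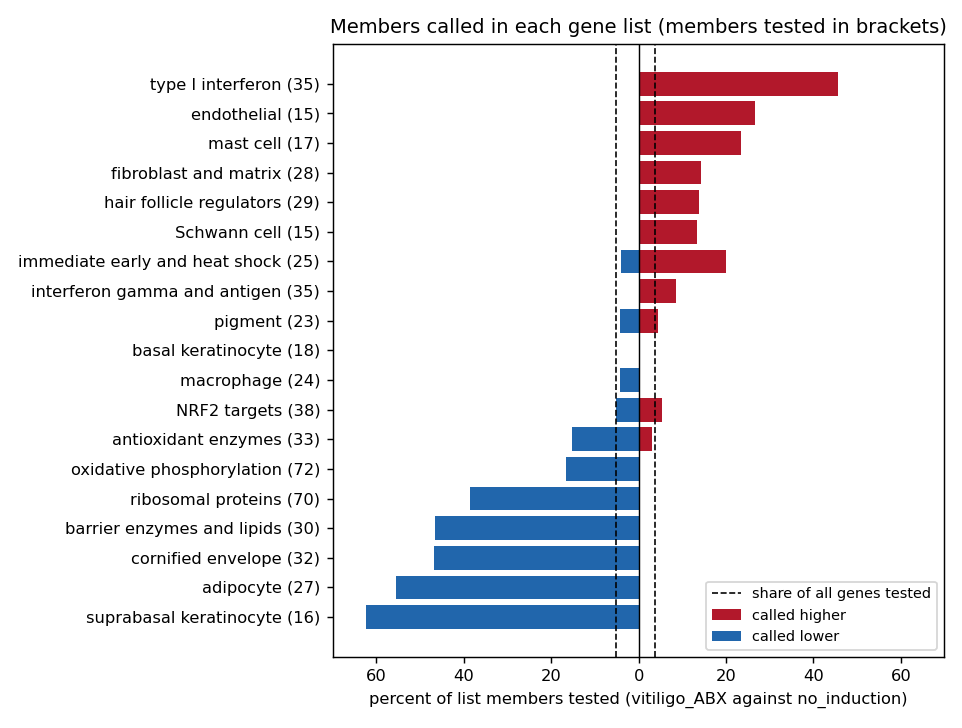
Percent of the tested members of 19 gene lists called higher (red, right) or lower (blue, left) in vitiligo_ABX than in no_induction, with the shares of all 13977 genes tested (3.85% higher, 5.13% lower) as dashed lines. Type I interferon genes reached 45.7% higher and suprabasal keratinocyte genes 62.5% lower.

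Fat genes were lower in vitiligo_ABX. Of 27 adipocyte genes 15 were called lower and none higher, 55.6% against 5.13%, with a median log2 fold change of -0.76, and all 27 fitted values were negative. Dgat2 and Agpat2, enzymes of triglyceride synthesis that sebaceous cells and keratinocytes also use, were the 2 of 27 whose groups did not overlap. Of all genes tested, 0.78% were lower without overlap. Dgat2 had 107, 129 and 201 CPM in vitiligo_ABX against 215, 234 and 300 CPM in no_induction (-0.82 ± 0.13, adjusted p 0.00376). Genes of fat cells themselves fell further, with overlap. Adiponectin (Adipoq), a hormone of fat cells, had 5.54, 12.2 and 48.6 CPM in vitiligo_ABX against 20.3, 74.8 and 102 CPM in no_induction (-1.83 ± 0.46, adjusted p 0.0254). Its vitiligo_ABX libraries 002 and 003 lay inside the no_induction range, and its median was 322 CPM in vitiligo and 5.46 CPM in no_induction_ABX. Leptin (Lep) and resistin (Retn), likewise hormones of fat, were lower by 2.12 ± 0.63 (adjusted p 0.0429) and 2.08 ± 0.59 (adjusted p 0.0393). The call of Adipoq was lost without any 1 of vitiligo_ABX 004 to 006 (adjusted p up to 0.0695). Those of Lep and Retn were lost without any 1 of 12 and of 8 libraries, among them vitiligo_ABX 001, 004, 005 and 006 and no_induction 005, 011 and 021 for both, with adjusted p up to 0.112 and 0.1. Vitiligo_ABX 002 and no_induction 001, 002, 003 and 023 complete the libraries of Lep, and no_induction 012 those of Retn. The list count was 7 without vitiligo_ABX 001, 5 without vitiligo_ABX 004, 005 or 006, 7 without no_induction 011, 9 without no_induction 005 or 012, 5 without both no_induction 011 and 012, and 0 without vitiligo_ABX 004 to 006, where the median was -0.58.

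Acute phase and complement genes gave 4 called lower of 12 tested and none higher, 33.3% against 5.13%, with a median of -0.23. Complement C3, the central protein of the complement cascade, had 44.4, 57.7 and 67.1 CPM in vitiligo_ABX against 85.1, 123 and 160 CPM in no_induction. The groups did not overlap (-1.07 ± 0.13, adjusted p 0.000899), and the adjusted p of C3 reached at most 0.00437 with any 1 library left out. The median of C3 was 400 CPM in vitiligo and 49.8 CPM in no_induction_ABX. Serum amyloid Saa1 did not overlap either, with 2.12, 2.88 and 5.02 CPM in vitiligo_ABX against 6.18, 12.1 and 45.2 CPM in no_induction (-2.39 ± 0.39, adjusted p 0.00376). Haptoglobin (Hp), which binds free haemoglobin, was lower by 2.13 ± 0.53 (adjusted p 0.0224), a call lost without any 1 of vitiligo_ABX 004 to 006 (adjusted p up to 0.0651). Hp had a median of 121 CPM in vitiligo and 2.90 CPM in no_induction_ABX. The count of the list was 2 without any 1 of vitiligo_ABX 004 to 006. Complement C7 had 0.186, 0.711 and 2.12 CPM in vitiligo_ABX against 0.361, 5.53 and 120 CPM in no_induction, where the libraries with Y-linked transcripts lay at the top. Its log2 fold change was -5.16 ± 1.3 (adjusted p 0.0269) with all libraries and -2.85 without no_induction 011 and 012 (adjusted p 0.0328), and its call was lost without any 1 of vitiligo_ABX 004 to 006 (adjusted p up to 0.0786).

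Ribosomal protein and respiratory chain genes were lower by small amounts. Of 70 ribosomal protein genes 27 were called lower and none higher, 38.6% against 5.13%, with a median of -0.40 and all 70 fitted values negative. Rps29 had 132, 157 and 181 CPM in vitiligo_ABX against 169, 269 and 379 CPM in no_induction (-0.86 ± 0.16, adjusted p 0.00555), and Rps28 was lower by 0.80 ± 0.16 (adjusted p 0.00750). Of 72 nuclear genes of oxidative phosphorylation 12 were called lower and none higher, 16.7% against 5.13%, with a median of -0.24. Transcript length, taken as that of the longest annotated transcript of each gene and not measured in these libraries, moved with these results. The shortest of 5 equal length classes of genes tested (204 to 1984 nucleotides) had a median log2 fold change of -0.10 with 1.57% called higher and 9.12% called lower, and the longest class (5257 nucleotides and over) had 0.08 with 6.76% and 2.15%. The median length was 1114 nucleotides for ribosomal protein genes and 1093 for oxidative phosphorylation genes, against 3393 for all genes tested. With an offset for length and GC content 23 ribosomal genes (median -0.25) and 4 oxidative phosphorylation genes (median -0.06) were called lower. Without vitiligo_ABX 005 there were 5 ribosomal and 0 oxidative phosphorylation genes called, and without vitiligo_ABX 003 there were 38 and 29. Without vitiligo_ABX 004 or 006 there were 10 ribosomal genes in each case, and without no_induction 005, 011 or 012 there were 17, 12 or 15. Oxidative phosphorylation counts were 6 or fewer without any 1 of vitiligo_ABX 001, 002, 004 and 006 or no_induction 005, 011, 012, 021, 022 and 023. Many ribosomal protein genes have processed copies elsewhere in the genome that can share reads, so single members are uncertain.

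Mast cell, vessel, nerve and matrix genes were higher in part. Of 17 mast cell genes 4 were called higher (23.5% against 3.85%) with a median of 0.72 and all 17 fitted values positive. Mrgprx2, an itch-linked receptor of mast cells, had 3.20, 6.58 and 9.78 CPM in vitiligo_ABX against 1.55, 2.46 and 4.06 CPM in no_induction (1.21 ± 0.26, adjusted p 0.0108), and its call held with any 1 library left out. The others were the interleukin 33 receptor Il1rl1 (0.98 ± 0.27, adjusted p 0.0334), the histamine-forming enzyme Hdc (1.05 ± 0.29, adjusted p 0.0363) and the tryptase Tpsb2 (0.81 ± 0.24, adjusted p 0.0450). These 3 calls were each lost without any 1 of 7 to 11 libraries. The list count was 1 without any 1 of vitiligo_ABX 005 and 006 and no_induction 021, 022 and 023, 2 without any 1 of vitiligo_ABX 002 and 004 and no_induction 011 and 012, 10 without no_induction 005, and 0 without no_induction 021 to 023 together. Without vitiligo_ABX 002 the log2 fold change of Hdc was 0.65. Of 15 endothelial genes 4 were called higher (26.7% against 3.85%), with a median of 0.47. Flt1, a receptor for vascular growth factors, did not overlap, at 44.4, 51.3 and 67.6 CPM in vitiligo_ABX against 31.7, 33.2 and 42.5 CPM in no_induction (0.55 ± 0.10, adjusted p 0.00437). The calls of Tie1, Esam and Cdh5 were lost without any 1 of 9 to 11 libraries, and 1 endothelial gene was called without any 1 of vitiligo_ABX 004 to 006 and no_induction 002, 003, 011 and 021 to 023, against 7 without no_induction 005. Without vitiligo_ABX 006 the log2 fold change of Cdh5 was 0.35. Of 15 Schwann cell genes 2 were called higher (13.3% against 3.85%), Cdh19 and Scn7a, with a median of 0.39, and the count was 0 without any 1 of vitiligo_ABX 004 to 006 or no_induction 003 and 021 to 023, 1 without no_induction 002 and 5 without vitiligo_ABX 001.

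Of 28 fibroblast and matrix genes 4 were called higher (14.3% against 3.85%), with a median of 0.26. Elastin (Eln), the protein of elastic fibres, had 88.3, 171 and 279 CPM in vitiligo_ABX against 74.3, 84.0 and 112 CPM in no_induction (0.97 ± 0.18, adjusted p 0.00526), with vitiligo_ABX 002 inside the no_induction range. Pdgfrb, a growth factor receptor of pericytes and fibroblasts, was higher by 0.57 ± 0.12 (adjusted p 0.0105), thrombospondin (Thbs1) by 0.73 ± 0.17 (adjusted p 0.0140) and the microfibril protein Mfap5 by 0.63 ± 0.17 (adjusted p 0.0300). Of these, Mfap5 lost its call without any 1 of vitiligo_ABX 004 to 006 and no_induction 011, 021 and 023 (adjusted p up to 0.0927). Without vitiligo_ABX 003, 8 members were called. The median of Eln was 81.0 CPM in vitiligo and 176 CPM in no_induction_ABX. Of 13 bone and cartilage genes 3 were called higher (23.1% against 3.85%), aggrecan (Acan), a cartilage proteoglycan, at 7.79, 19.6 and 28.2 CPM in vitiligo_ABX against 2.46, 5.10 and 10.4 CPM in no_induction (1.68 ± 0.28, adjusted p 0.00376), Col11a1 (1.09 ± 0.27, adjusted p 0.0224) and Runx2 (0.65 ± 0.15, adjusted p 0.0165). Col11a1 lost its call without any 1 of vitiligo_ABX 004 to 006 and Runx2 without vitiligo_ABX 006 (adjusted p up to 0.0720 and 0.0560), and the list had 1 call without vitiligo_ABX 006 and 5 without vitiligo_ABX 002. The positional gene Hoxb13, which marks the tail end of the body axis, had 13.7, 23.1 and 33.6 CPM in vitiligo_ABX against 2.06, 9.17 and 12.2 CPM in no_induction, without overlap (1.49 ± 0.29, adjusted p 0.00738). It was the 1 call higher among 15 posterior Hox genes tested (6.67% against 3.85% of all genes), whose median was -0.09 with 10 negative values. Hoxa9 (-0.29, adjusted p 0.0449) and Hoxd9 (-0.34, adjusted p 0.0479) were called lower (13.3% against 5.13%), and the lower count was 0 or 1 without any 1 library other than vitiligo_ABX 003 and no_induction 001. The median of Hoxb13 was 3.69 CPM in vitiligo and 27.2 CPM in no_induction_ABX. Its part in the matrix and cartilage results was not tested.

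**Figure D5:**
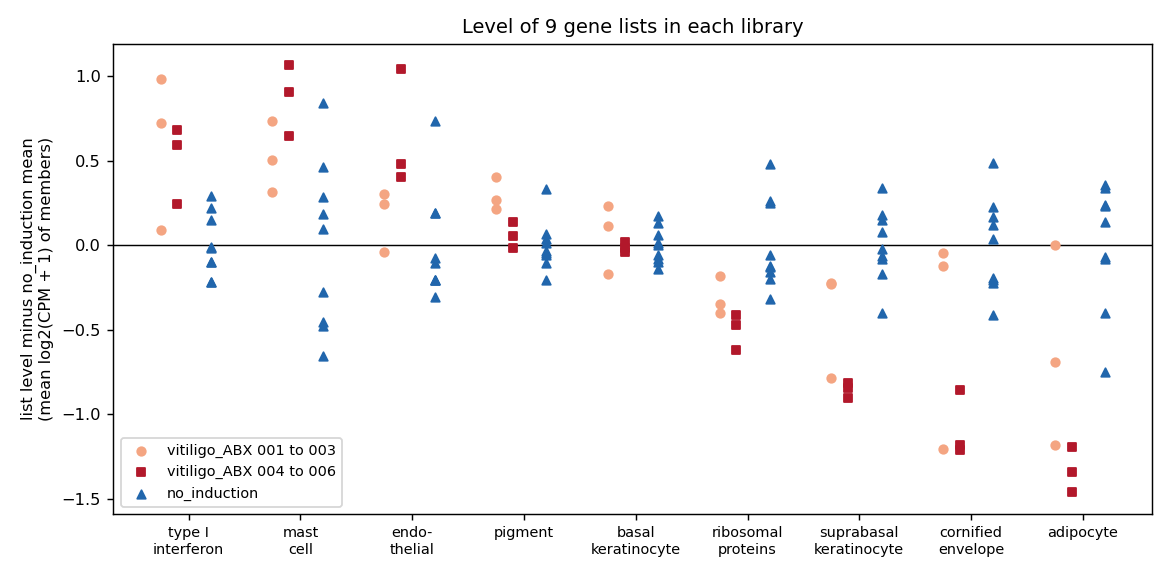
Level of 9 gene lists in each library, as the mean log2(CPM + 1) of the members minus the mean over no_induction libraries (y axis), for vitiligo_ABX 001 to 003 (orange circles), vitiligo_ABX 004 to 006 (red squares) and no_induction (blue triangles). In the adipocyte, cornified envelope and suprabasal lists vitiligo_ABX 004 to 006 lay below all no_induction libraries, and at least 1 of vitiligo_ABX 001 to 003 lay among them.

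The study asked about oxidative stress, and few genes of its lists were called. Of 33 antioxidant enzyme genes 1 was called higher and 5 lower (3.03% and 15.2%, against 3.85% and 5.13%), with a median of -0.14. Gpx3, the extracellular glutathione peroxidase, had 96.0, 135 and 292 CPM in vitiligo_ABX against 188, 459 and 1162 CPM in no_induction (-1.79 ± 0.41, adjusted p 0.0154), and its call was lost without vitiligo_ABX 005 (adjusted p 0.0508). Glutaredoxin (Glrx), which reduces proteins bound to glutathione, was lower by 0.88 ± 0.19 (adjusted p 0.0113). The list's lower count was 1 without vitiligo_ABX 005, 2 without vitiligo_ABX 004 or 006, 2 without no_induction 011 and 012, and 3 without any 1 of no_induction 003, 005, 011, 012, 021 and 023. Catalase (Cat), which breaks down hydrogen peroxide, had 168, 195 and 272 CPM in vitiligo_ABX against 166, 185 and 268 CPM in no_induction, a log2 difference of 0.02 with an interval of -0.24 to 0.28. The superoxide dismutases Sod2 and Sod1 differed by 0.02 (interval -0.13 to 0.17) and -0.24 (interval -0.49 to 0.00, adjusted p 0.198). Of 38 targets of the stress factor NRF2 2 were called higher and 2 lower (both 5.26%, against 3.85% and 5.13% of all genes), with a median of -0.06. Gclm, which makes glutathione, was higher without overlap at 57.1, 61.4 and 69.4 CPM in vitiligo_ABX against 36.6, 47.8 and 56.8 CPM in no_induction (0.35 ± 0.09, adjusted p 0.0208), a call lost without vitiligo_ABX 004 (adjusted p 0.0606). Gsta2, a glutathione transferase, was lower without overlap, by 0.91 ± 0.16 (adjusted p 0.00406). In each direction 1 of the 38 did not overlap, against 0.451% of all genes tested higher and 0.780% lower. Hmox1 and Nqo1, usual readouts of NRF2, differed by -0.12 (interval -0.51 to 0.27) and -0.06 (interval -0.29 to 0.16). Of 24 genes that make reactive oxygen or nitrogen species 2 were called higher and 1 lower (8.33% and 4.17%, against 3.85% and 5.13%), with a median of 0.02. Those called higher were prostaglandin synthase Ptgs2 (1.70 ± 0.37, adjusted p 0.0122) and nitric oxide synthase Nos2 (0.83 ± 0.25, adjusted p 0.0490). The call of Nos2 was lost without any 1 of 12 libraries, all but vitiligo_ABX 001 and 003 and no_induction 003 (adjusted p up to 0.142). The stress kinase Mapk14 (p38) differed by -0.19 (interval -0.34 to -0.04, adjusted p 0.0970), and 2 of 28 genes of its pathway were called lower (7.14% against 5.13%), 6 without vitiligo_ABX 002, 4 without vitiligo_ABX 003, and 1 without any 1 of vitiligo_ABX 004 to 006 and no_induction 011 and 021 to 023.

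Of 25 immediate early and heat shock genes 5 were called higher and 1 lower (20% and 4%, against 3.85% and 5.13%). The nuclear receptor Nr4a3 had 4.32, 6.31 and 24.4 CPM in vitiligo_ABX against 1.75, 2.90 and 5.84 CPM in no_induction (1.59 ± 0.34, adjusted p 0.0108), with vitiligo_ABX 002 the highest and a log2 fold change of 1.03 without it, and Jun was higher by 0.34 ± 0.07 (adjusted p 0.0108). Klf4, a factor of epidermal differentiation, was lower without overlap, at 171, 304 and 373 CPM in vitiligo_ABX against 395, 445 and 556 CPM in no_induction (-0.63 ± 0.14, adjusted p 0.0126). The count of rises was 2 without vitiligo_ABX 005 and 3 without any 1 of vitiligo_ABX 006 and no_induction 011, 021 and 023. Of 19 clock genes 3 were called lower (15.8% against 5.13%), led by the activator Arntl (-0.56 ± 0.11, adjusted p 0.00712), with 19.5, 22.1 and 33.5 CPM in vitiligo_ABX against 29.98, 34.4 and 39.4 CPM in no_induction. The other two were Ciart (-0.53 ± 0.13, adjusted p 0.0224), whose call was lost without any 1 of vitiligo_ABX 004 to 006, and Npas2 (-0.53 ± 0.15, adjusted p 0.0393), whose call was lost without any 1 of 13 libraries, all but no_induction 001 and 011 (adjusted p up to 0.0695 and 0.0935). The count was 1 without any 1 of vitiligo_ABX 004 to 006. The labels give no time of sampling.

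Among called genes named here the largest rise was in Paqr7, a membrane progestin receptor, with 359, 490 and 975 CPM in vitiligo_ABX against 58.1, 156 and 240 CPM in no_induction. The groups did not overlap (1.93 ± 0.32, adjusted p 0.00376), and the median was 348 CPM in vitiligo and 275 CPM in no_induction_ABX. Myostatin (Mstn), a growth inhibitor of muscle, did not overlap either, at 1.88, 3.38 and 6.53 CPM in vitiligo_ABX against 0.694, 1.09 and 1.74 CPM in no_induction (1.78 ± 0.27, adjusted p 0.00319). The latent growth factor binding protein Ltbp2 rose to 5.70, 26.0 and 39.2 CPM in vitiligo_ABX, against 4.18, 6.56 and 9.72 CPM in no_induction (1.89 ± 0.33, adjusted p 0.00476), and its median was 5.67 CPM in vitiligo and 27.4 CPM in no_induction_ABX. Apol9a, an interferon-induced apolipoprotein L, rose by 1.70 ± 0.40 (adjusted p 0.0161). The calcium pump Atp2b2 was called higher at 1.68 ± 0.50 (adjusted p 0.0437). Library vitiligo_ABX 006 held 8.95 CPM of Atp2b2 and the other 5 vitiligo_ABX libraries 0.457 to 1.48 CPM, and the log2 fold change was 0.59 without it. The call was lost without any 1 of 11 libraries, all but vitiligo_ABX 001 to 003 and no_induction 005 (adjusted p up to 0.252).

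The falls were larger than the rises, and in some of them single no_induction libraries stood apart. Wfdc12, a protease inhibitor of the whey acidic protein family, had 8.89, 13.0 and 27.9 CPM in vitiligo_ABX against 51.3, 116 and 433 CPM in no_induction. The groups did not overlap (-3.23 ± 0.49, adjusted p 0.00364), and the median of Wfdc12 was 75.0 CPM in vitiligo and 13.6 CPM in no_induction_ABX. The cytochrome P450 gene Cyp2g1, which the sebaceous list holds, had 0.203, 0.767 and 1.24 CPM in vitiligo_ABX against 0, 30.8 and 76.6 CPM in no_induction (-5.36 ± 1.15, adjusted p 0.0131). Its relative Cyp2a5 had 0, 0.165 and 0.603 CPM in vitiligo_ABX against 0.0877, 2.32 and 5.12 CPM in no_induction (-3.33 ± 0.75, adjusted p 0.0139). In both genes the no_induction libraries with Y-linked transcripts, 011 and 012, were the lowest of that group, and the other 7 lay above every vitiligo_ABX library. Without no_induction 011 and 012 the log2 fold change was -5.71 for Cyp2g1 (adjusted p 0.000193) and -3.67 for Cyp2a5 (adjusted p 0.00141). Without vitiligo_ABX 004 to 006 the adjusted p of Cyp2g1 was 0.258 and that of Cyp2a5 0.203. The vitiligo_ABX libraries 001 to 003 nonetheless held the least, 0.203 to 0.559 CPM of Cyp2g1 against 0.974 to 1.24 CPM in 004 to 006. For Cyp2a5 these values were 0 to 0.152 CPM and 0.177 to 0.603 CPM. The plasma protein precursor Ambp (-2.87 ± 0.79, adjusted p 0.0342), the lipid synthesis gene Thrsp (-2.30 ± 0.64, adjusted p 0.0365) and the ribosomal protein copy Rpl39l (-2.14 ± 0.59, adjusted p 0.0343) were called lower as well. Ambp and Thrsp lost their calls without any 1 of vitiligo_ABX 001, 002, 004, 005 and 006 and without 3 no_induction libraries each (021 to 023 for Ambp, and 005, 011 and 012 for Thrsp), with adjusted p up to 0.0809 and 0.0977. Rpl39l lost its call without any 1 of vitiligo_ABX 004 to 006 and no_induction 003 and 012 (adjusted p up to 0.0828). Mrap, a receptor partner of melanocortin signalling in fat, was lower by 2.27 ± 0.50 (adjusted p 0.0127), which held with any 1 library left out.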

How the data were processed

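Tail skin RNA was enriched with oligo(dT) beads, made into NEBNext Ultra libraries and sequenced on a NovaSeq6000, per the labels. The deposited table holds estimated counts per gene for 38 libraries, made by the authors. StringTie 1.3.1, HISAT2, DESeq2 and Bowtie2 2.2.8 appear with no role given, per the submitters' processing notes. The genome build, the counting program and its use of strand are not given in the sources used here. Of 19219 genes with complete rows, 3107 (16.2%) had a value that was not whole, and values were rounded.

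Groups came from the treatment label, with 6 vitiligo_ABX and 9 no_induction libraries. The main test was edgeR 4.0.16 (R 4.3.3), with TMM scaling, the default expression filter and the robust quasi-likelihood F test, called at a Benjamini-Hochberg adjusted p under 0.05 over all 13977 genes. The test was tried on simulated counts of these 13977 genes: it recovered 49.3% of genes changed 1.5-fold, 92.5% of those changed 2-fold and 97% at 4-fold, and 5.36% of its calls were false. The simulation drew each gene on its own, with no libraries standing apart as they do here. Its shares of recovered genes and false calls may therefore not hold for these libraries. CPM used TMM-scaled totals of the 30 libraries of 4 groups. Distances used log2(CPM + 1) and an exact permutation test over libraries. Alternatives were RLE factors, other filters, DESeq2 1.42.0, limma 3.58.1 voom with library quality weights (limma-voom in all mentions), larger fits and 1 surrogate variable (sva 3.50.0). Others were a length and GC offset, a replicate block and libraries left out. All 19219 identifiers matched GENCODE M21, used only for the length and GC of the longest transcript of each gene. No 2 libraries of a group agreed within sampling noise, the closest pair having a chi-square per degree of freedom of 7.58.

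Genes named were the 10 largest rises and falls among called genes at a mean of 1 CPM or more with an established symbol, up to 4 members of each list with the smallest p, and a fixed set; some genes under this rule are not reported here. Called members named to complete a count fall outside this rule and were chosen after their values were seen. The members and the 40 gene lists were chosen with earlier results of these data known. The fits without vitiligo_ABX 004 to 006, without no_induction 021 to 023, of the 8 libraries with no block, and with the length and GC offset were chosen after seeing the data, as were the distances without vitiligo_ABX 004 to 006 and without Y-linked libraries.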

Additional observations from a re-analysis of the deposited data

Results flagged for a closer look

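Of 246 gene and group combinations tested for a single library far from the rest of its group, 35 held one, in each case the highest of its group. Chance alone marks about 1 in 20 such combinations, and genes of one library are not independent. Library vitiligo_ABX 003 was far above its group in Apol9a (4.976 CPM, others 0.5645 to 1.982 CPM), Thrsp (7.414 CPM, others 0.8836 to 2.032 CPM), Mrap (3.351 CPM, others 0.3049 to 1.411 CPM), Oca2 (6.043 CPM, others 0.7069 to 2.338 CPM) and Retn (27.88 CPM, others 2.068 to 10.95 CPM). The same library stood out in H2-K1 (304.5 CPM, others 183.3 to 228.1 CPM), Cxcl9 (8.632 CPM, others 0.3952 to 1.016 CPM), Cxcl10 (5.484 CPM, others 0.8352 to 1.457 CPM), Rps28 (151.5 CPM, others 102.0 to 120.5 CPM) and Rpl39 (241.1 CPM, others 178.4 to 199.6 CPM). The same library stood out in Nqo1 (16.1 CPM, others 13.97 to 14.68 CPM), Cyp2e1 (25.69 CPM, others 1.927 to 7.959 CPM) and Ciart (14.73 CPM, others 8.507 to 10.57 CPM). Library vitiligo_ABX 006 was far above its group in Atp2b2 (8.954 CPM, others 0.4573 to 1.485 CPM), Tie1 (137.3 CPM, others 53.97 to 69.51 CPM) and Cdh5 (154.3 CPM, others 76.12 to 96.91 CPM). Library vitiligo_ABX 002 was far above its group in Lce1l (216.7 CPM, others 72.1 to 125.3 CPM), Hdc (32.52 CPM, others 8.445 to 13.3 CPM) and Nr4a3 (24.39 CPM, others 4.316 to 8.601 CPM). Library vitiligo_ABX 004 was far above its group in Retnla (62.13 CPM, others 0.9147 to 20.4 CPM). Library no_induction 012 was far above its group in Wfdc12 (432.8 CPM, others 51.27 to 190.6 CPM), Saa1 (45.15 CPM, others 6.183 to 21.64 CPM), Hp (70.12 CPM, others 5.177 to 26.79 CPM), Krt78 (213.3 CPM, others 79.84 to 144.3 CPM) and Krt10 (17767.3 CPM, others 7723.8 to 12669.9 CPM). The same library stood out in Mgst2 (17.81 CPM, others 8.126 to 12.38 CPM) and Hmox1 (128.3 CPM, others 73.68 to 97.25 CPM). Library no_induction 005 was far above its group in Tie1 (75.46 CPM, others 35.41 to 52.17 CPM), Cdh5 (105.1 CPM, others 52.41 to 71.16 CPM) and Mapk14 (131.0 CPM, others 105.7 to 117.8 CPM). Library no_induction 011 was far above its group in Tyr (25.57 CPM, others 10.19 to 15.03 CPM) and Mlana (14.62 CPM, others 2.063 to 7.263 CPM). Library no_induction 022 was far above its group in Cxcl9 (2.227 CPM, others 0.3198 to 0.8011 CPM) and Nr4a3 (5.839 CPM, others 1.754 to 3.528 CPM). Library no_induction 001 was far above its group in Gbp7 (13.11 CPM, others 6.14 to 9.62 CPM).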

How the results depend on the processing

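The 1255 calls (538 higher, 717 lower) came to 1266 with RLE factors, 1104 without a filter, 1240 with a stricter filter, 1668 with 30 libraries in the fit, 1674 with 1 surrogate variable and 1854 (665 higher, 1189 lower) with a length and GC offset. There were 1959 (884 higher, 1075 lower) with DESeq2, 4816 (2412 higher, 2404 lower) with limma-voom and library quality weights, 1907 (784 higher, 1123 lower) with 38 libraries, and 217 (74 higher, 143 lower) at 2-fold or more. Without the libraries with Y-linked transcripts there were 559 (230 higher, 329 lower), without the library high in gastrointestinal transcripts 827 (345 higher, 482 lower), without no_induction 021 to 023 506 (147 higher, 359 lower), without vitiligo_ABX 001 to 003 3035 (1510 higher, 1525 lower), and without vitiligo_ABX 004 to 006 1 (1 higher, 0 lower). Leaving out 1 library gave 399 to 1646 calls, 154 to 760 higher and 245 to 911 lower, with vitiligo_ABX 005 the lowest. The cause of these shifts was not tested.

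The replicate block on the 8 libraries whose numbers occur in both groups gave 1 call (0 higher, 1 lower), as did those 8 without it (0 higher, 1 lower). Libraries sharing a number did not deviate together (correlations -0.45, -0.13, -0.19 and 0.2), so the numbers were not taken as pairs. The share of calls that were lower was 57.1%, against 64.1% with the length and GC offset, 70.9% without no_induction 021 to 023, 50.2% without vitiligo_ABX 001 to 003, 49.9% with limma-voom and 46.2% without no_induction 005, where more genes were called higher.

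The excess distance of 0.0720 was 0.0638 to 0.0808 under other scalings, filters and pseudocounts, 0.0551 to 0.0894 with 1 library left out, and 0.0268 (exact permutation p = 0.0818) without vitiligo_ABX 004 to 006. Of the set of 100 called genes followed through the fits, which is not the same as the genes named, 57 stayed called whichever single library was left out. In that set 71 stayed called without the Y-linked libraries, 92 with the length and GC offset and 100 with DESeq2, and none reversed. The genes were chosen as called in the main fit, and these fits share its libraries, so a kept sign is no separate support. Counting depth limits the lowest genes, and changes under 2-fold were missed more often in simulation.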

Other observations

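Further lists gave few or no calls. Of 28 cell cycle genes the replication helicase gene Mcm6 was called higher (0.25, adjusted p 0.0454; 3.57% of the list against 3.85% of all genes), and the list had no call without any 1 of 13 libraries, all but vitiligo_ABX 002 and no_induction 022. None of 16 glucocorticoid-responsive genes was called by edgeR, where 2 were higher and 0 lower at an unadjusted p under 0.05, DESeq2 called 0 and limma-voom 4 higher and 2 lower. None of 13 mitochondrially encoded genes was called by edgeR, with 0 at an unadjusted p under 0.05, 0 calls by DESeq2 and 1 higher by limma-voom. Of 22 cholesterol synthesis genes 3 were called lower (13.6% against 5.13%), led by the sterol carrier Stard4 (-0.67 ± 0.13, adjusted p 0.00705), and the count was 1 without any 1 of vitiligo_ABX 004 to 006 and no_induction 011 and 023. Of 17 sebaceous genes 3 were called lower (17.6% against 5.13%), led by the desaturase family gene Fads2b. Fads2b had 33.5, 52.9 and 66.5 CPM in vitiligo_ABX against 76.1, 90.8 and 96.3 CPM in no_induction, without overlap (-0.77 ± 0.12, adjusted p 0.00364). Of 24 macrophage genes 1 was called lower (4.17% against 5.13% of all genes) and none higher, and 20 fitted values were positive (median 0.21). The call was the integrin gene Itgad (-2.18 ± 0.63, adjusted p 0.0398). It was lost without any 1 of vitiligo_ABX 001, 004, 005 and 006 and no_induction 001, 003, 005, 021 and 023 (adjusted p up to 0.0982). Itgad was low in vitiligo_ABX, at 0.0508, 0.280 and 0.457 CPM (lowest, median and highest). Its median was 9.74 CPM in vitiligo and 0.130 CPM in no_induction_ABX.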
